A study of Mus with 4 samples.

Results

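The genes described here are 10 members of the cytosolic HSP90 and HSP70 chaperone machinery, Cdc37, Cdc37l1, Hsp90aa1, Hsp90ab1, Hspa8, Hspa1a, Hspa1b, Hsph1, Dnajb1 and Hsf1. They were chosen by gene symbol in the deposited table, with every probe that carries one of these symbols, and they have 22 probes among 56605 probes for 26893 gene symbols. The study compared 2 samples of a murine podocyte cell line given a lentivirus for the active, N-terminal form of OASIS, the transcription factor encoded by Creb3l1, with 2 samples given a lentivirus for Venus, a fluorescent protein used as the control. The question of the comparison was which transcripts change in podocytes when OASIS is overexpressed. In both groups the immortalized cells had been differentiated for 10 to 14 days at 37 °C without interferon-γ. They were then exposed to the vector for 24 h at a multiplicity of infection of 200 to 500 with polybrene at 8 µg/mL, and RNA was taken 48 h after the vector was added. The model is a single cell line in culture, in which the insert was delivered by lentivirus. The labels do not say that samples of a group came from separate cultures, so the p-values may measure technical spread only.

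HSP90 is an abundant ATP-driven chaperone of the cytosol that brings kinases, steroid receptors and other signalling proteins to an active state, and CDC37 is the partner that delivers kinases to it. HSP70 proteins bind unfolded segments in an ATP cycle that J-domain proteins such as DNAJB1 start and nucleotide exchange factors such as HSPH1 complete. HSF1 is the transcription factor that raises the inducible members of this machinery under proteotoxic stress, whereas OASIS belongs to a family of membrane-bound factors that respond to stress in the endoplasmic reticulum.

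Each sample was measured on its own 1-colour array, and the 4 arrays lay on 1 slide. Of 59305 spots that are not controls, between 33938 and 34418 were well above background on an array and 0 were saturated. A normalized log2 intensity is the background-corrected intensity on a log2 scale after the 75th percentile of the array has been set to 0, and it was compared only within a probe. In all, 31598 probes for 16318 genes were tested with limma, with Benjamini-Hochberg adjustment over this whole set. The study's threshold, a fold over 2 or under 0.5 with an adjusted p under 0.1, was used together with a looser rule of an adjusted p under 0.1 alone. The median log2 fold change of all probes was -0.069, and with 2 arrays a group the smallest p of a two-sided exact permutation test is 0.333. Of the podocyte markers, 7 were well above background on all arrays, whereas Tcf21 was on none and Nphs1 was on 1. Of markers of other cell types, 2 of 5 tubular, 1 of 5 endothelial and 4 of 5 leukocyte genes were well above background on all arrays. The single Creb3l1 probe had a log2 fold change of -0.17 (SE 0.10, limma adjusted p = 0.298), and since its place on the transcript was not analysed here it does not test the labels. In such bulk RNA, fewer cells of a type and less RNA per cell cannot be told apart.

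Cdc37l1, Dnajb1 and Hsph1 were higher with OASIS, and no member was called lower. Of the 22 member probes, 21 were tested. A single one, for Cdc37l1, passed the study's threshold as higher and 0 passed as lower, against 5.89% and 2.47% of all probes, or 8.36% in either direction. At an adjusted p under 0.1 alone, 6 were higher and 0 were lower, against 17% and 19.7% of all probes, or 36.7% in either direction. The 6 probes were 3 of Cdc37l1, 2 of Hsph1 and the probe of Dnajb1. The groups did not overlap for 11 member probes, of which 8 had the OASIS arrays above and 3 had them below. Non-overlap was common on these arrays, with 68% of all probes, 28.6% as higher and 39.4% as lower. The log2 fold change stayed within 1.5 fold either way for 18 of the 21 probes, and its median over them was 0.14. With 1 array left out this median ran from 0.016 without OASIS replicate 1 and 0.038 without Venus replicate 2 to 0.24 without OASIS replicate 2.

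**Figure D1:**
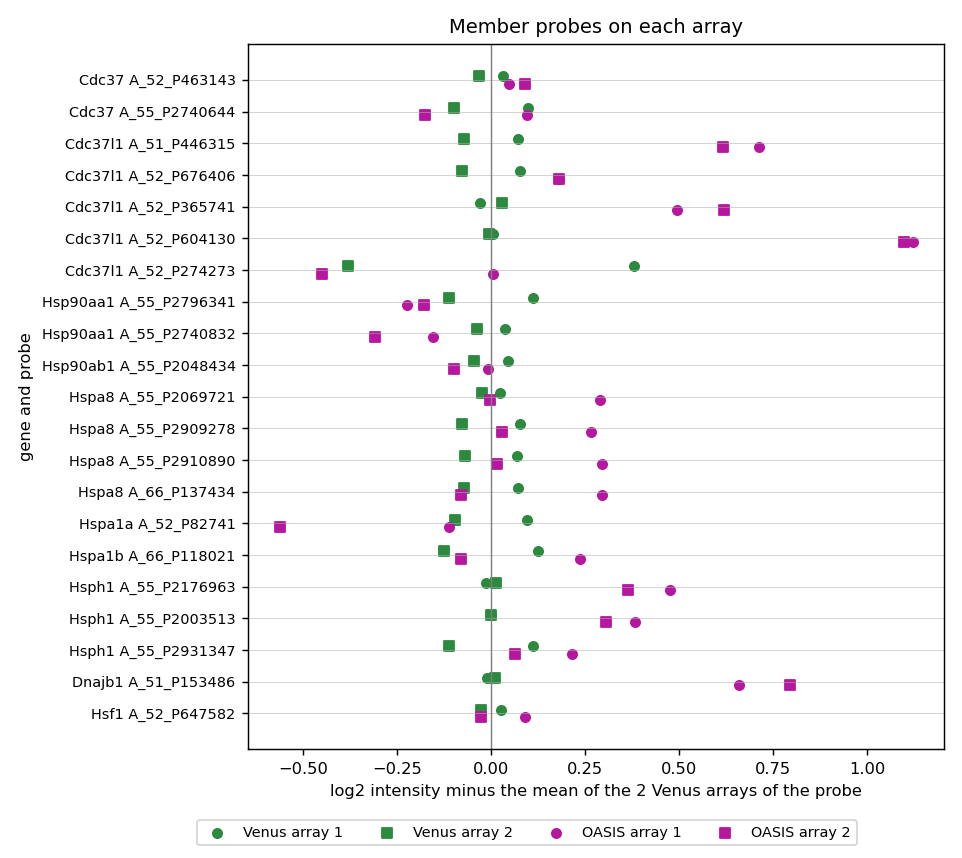
Normalized log2 intensity of each member probe tested, minus the mean of the 2 Venus arrays of the same probe, for the 2 Venus arrays (green) and the 2 OASIS arrays (magenta). The OASIS arrays stand clear of the Venus arrays for 3 probes of Cdc37l1, for 2 of Hsph1 and for Dnajb1, and for the 4 probes of Hspa8 OASIS array 1 lies farthest to the right.

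The 2 cytosolic HSP90 genes were not called. Hsp90ab1, on chromosome 17 in band qB3, encodes the constitutive HSP90 beta. Its probe A_55_P2048434 had a normalized log2 intensity of 7.03 and 6.94 with Venus and of 6.97 and 6.88 with OASIS. The groups overlapped, with a log2 fold change of -0.053 (SE 0.11, 95% interval -0.33 to 0.23, limma adjusted p = 0.742). Hsp90aa1, on chromosome 12 in band qF1, encodes the stress-responsive HSP90 alpha. Its probe A_55_P2796341 read 6.08 and 5.85 with Venus and 5.74 and 5.79 with OASIS, and probe A_55_P2740832 read 5.67 and 5.60 with Venus and 5.48 and 5.33 with OASIS. In both probes the OASIS arrays lay just below the Venus arrays. The log2 fold changes were -0.20 (SE 0.12, 95% interval -0.52 to 0.12, limma adjusted p = 0.285) and -0.23 (SE 0.11, 95% interval -0.53 to 0.064, limma adjusted p = 0.196). The second probe passed an adjusted p under 0.1 as lower after normexp background correction (-0.26, limma adjusted p = 0.0782) and with an intensity trend in the variance (limma adjusted p = 0.0836). The remaining Hsp90aa1 probe, A_55_P2352652, is annotated to an expressed sequence tag and was well above background on 0 arrays, so it was not tested.

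Of the kinase partner Cdc37 and its relative Cdc37l1, the latter alone had probes that were called. Cdc37, on chromosome 9 in band qA3, encodes the kinase-specific partner of HSP90. Its brighter probe A_52_P463143 read 6.69 and 6.63 with Venus and 6.71 and 6.75 with OASIS, so the groups were separated by 0.017 log2. The log2 fold change was 0.070 (SE 0.10, 95% interval -0.19 to 0.33, limma adjusted p = 0.647). Its dimmer probe A_55_P2740644 read 1.27 and 1.07 with Venus and 1.26 and 0.99 with OASIS, with a log2 fold change of -0.039 (SE 0.15, 95% interval -0.43 to 0.35, limma adjusted p = 0.867). The arrays of that probe interleaved, and neither Cdc37 interval reached 1.5 fold.

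Cdc37l1, on chromosome 19 in band qC1, encodes the CDC37-like protein Harc, which binds HSP90 and HSP70. It is 1 of the genes that the study itself selected from these arrays, so its direction is not independent evidence. Among its 5 probes, which the deposited table assigns to 4 transcript variants, 3 were called higher. Probe A_51_P446315, of variant 1, read 1.74 and 1.60 with Venus and 2.39 and 2.29 with OASIS. The groups were 0.55 log2 apart, and the log2 fold change was 0.67 (SE 0.11, 95% interval 0.37 to 0.96, limma adjusted p = 0.0214). The other probe of variant 1, A_52_P676406, read 1.92 and 1.77 with Venus and 2.03 and 2.03 with OASIS. Its OASIS arrays also lay above its Venus arrays, but the log2 fold change of 0.18 (SE 0.11, 95% interval -0.11 to 0.47) did not pass (limma adjusted p = 0.281). The brightest probe of a gene was taken by the mean over all 4 arrays, which for Cdc37l1 gave A_51_P446315. Over the Venus arrays alone A_52_P676406 was brighter, with a mean of 1.85 against 1.67.

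The probes of the remaining Cdc37l1 variants ranged from a clear rise to no call. Probe A_52_P365741, of variant 3, read -0.81 and -0.76 with Venus and -0.29 and -0.17 with OASIS, a log2 fold change of 0.56 (SE 0.11, 95% interval 0.28 to 0.84, limma adjusted p = 0.0284). Probe A_52_P604130, of variant 4, had an intensity of 83.2 and 88.0 with Venus and 186 and 185 with OASIS. It was dim but well above background on all 4 arrays, and the arrays of a group nearly coincided. It rose 2.16-fold, a log2 fold change of 1.11 (SE 0.097, 95% interval 0.85 to 1.37, limma adjusted p = 0.00652), and was the member probe that passed the study's threshold. With normexp background correction its log2 fold change was 0.77 (limma adjusted p = 0.000826), under 2-fold. Probe A_52_P274273, of variant 2, read -4.07 and -4.83 with Venus and -4.45 and -4.90 with OASIS. It was dim and its groups overlapped, with a log2 fold change of -0.22 (SE 0.31, 95% interval -1.03 to 0.59, limma adjusted p = 0.634).

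**Figure D2:**
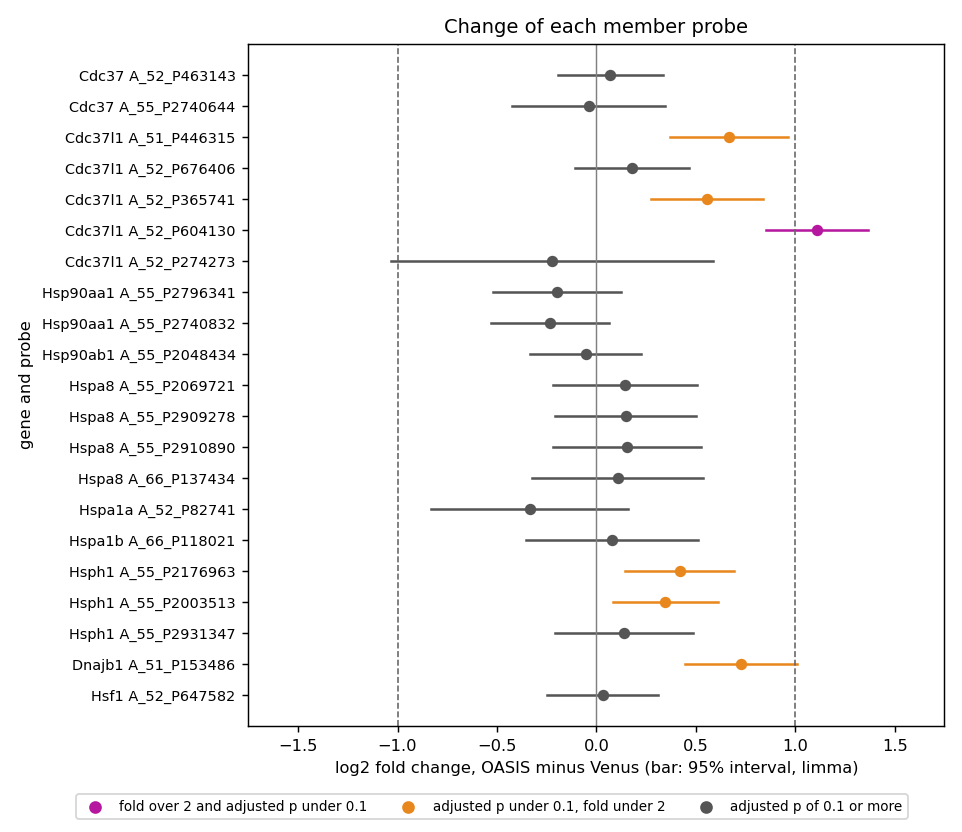
Log2 fold change, OASIS minus Venus, of each member probe tested, with the 95% interval from limma as a bar and dashed lines at 2-fold either way. Cdc37l1 probe A_52_P604130 alone lies beyond the line at 1, and the 5 probes in orange passed the adjusted p with a smaller change.

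The fold changes of the Cdc37l1 probes were also compared with each other. With diffSplice, limma's test of whether the probes of a gene share 1 fold change, the adjusted p over all genes with 2 or more probes was 0.0234 (F = 6.76), a call made for 27.2% of such genes. Against the other Cdc37l1 probes, A_52_P604130 was 0.81 log2 higher (limma adjusted p = 0.0208) and A_52_P274273 was 0.85 lower, as a difference of -0.85 (limma adjusted p = 0.0167). Such a difference was called for 22.8% of probes. The test treats probes read on the same 4 arrays as independent and pools their variance, so its p-values may be too small. A_52_P274273 was also variable, at -4.07 and -4.83 with Venus. Where on the transcript each probe lies was not analysed here. In the RefSeq table, whose assembly is GRCm38.p6, Cdc37l1 overlaps Ak3 and Gm10136. The 2 tested probes of Ak3, an adenylate kinase of mitochondria, had log2 fold changes of -0.095 and -0.20 (limma adjusted p = 0.649 and 0.232). The brightest probe of Cdc37l1, A_51_P446315, was compared with those of other genes over the 4 arrays, each centred on its mean. The nearest were Tbp, Rassf5 and Nup107, at Euclidean distances of 0.023, 0.027 and 0.041 log2. Tbp encodes the TATA-binding protein, Rassf5 a Ras effector and Nup107 a nucleoporin, and they had log2 fold changes of 0.65, 0.65 and 0.68 (limma adjusted p = 0.0208, 0.0207 and 0.0181).

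The HSP70 genes among the members, Hspa8, Hspa1a and Hspa1b, were not called. Hspa8, on chromosome 9 in band qA5.1, encodes HSC70, the constitutive HSP70 of the cytosol, and its 4 probes are annotated to transcript variant 2. Its brightest probe A_55_P2069721 read 6.05 and 6.01 with Venus and 6.32 and 6.03 with OASIS. OASIS array 1 was above the other 3 arrays, and OASIS array 2 lay between the Venus arrays. OASIS array 1 was highest in all 4 probes, which read the same samples and add no replicates. OASIS array 2 lay between the Venus arrays in 3 of them and just below both in A_66_P137434. Their log2 fold changes were 0.14, 0.15, 0.16 and 0.11, with limma adjusted p-values of 0.485, 0.461, 0.463 and 0.667. For the brightest probe the 95% interval was -0.22 to 0.51, and without OASIS replicate 1 its log2 fold change was -0.0022. Hspa8 overlaps the small nucleolar RNA genes Snord14c, Snord14d and Snord14e in the RefSeq table.

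Hspa1a and Hspa1b, neighbours on chromosome 17 in band qB1, are near-identical copies that encode the stress-inducible HSP70, and reads of 1 copy by the probe of the other cannot be told apart here. Hspa1a probe A_52_P82741 read -0.40 and -0.60 with Venus and -0.61 and -1.06 with OASIS. The OASIS arrays were lower by a gap of 0.015 log2, most of the difference coming from OASIS array 2, and the log2 fold change was -0.34 (SE 0.19, 95% interval -0.83 to 0.16, limma adjusted p = 0.249). Without OASIS replicate 1 it was -0.56 and passed an adjusted p under 0.1 (limma adjusted p = 0.0861). Hspa1b probe A_66_P118021 read -0.32 and -0.58 with Venus and -0.21 and -0.53 with OASIS. Its groups overlapped, with a log2 fold change of 0.078 (SE 0.16, 95% interval -0.36 to 0.51, limma adjusted p = 0.759).

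Of the partners of HSP70 among the members, Dnajb1 and 2 of the 3 probes of Hsph1 were called higher. Dnajb1, on chromosome 8 in band qC2, encodes the J-domain protein HSP40, which stimulates the HSP70 ATPase. Its probe A_51_P153486 read 4.56 and 4.58 with Venus and 5.23 and 5.36 with OASIS. The groups were 0.65 log2 apart, and Dnajb1 rose 1.66-fold, a log2 fold change of 0.73 (SE 0.11, 95% interval 0.45 to 1.01, limma adjusted p = 0.0160). Its interval included 2-fold. Without Venus replicate 1 or Venus replicate 2, where the lone array is assumed to vary like the OASIS group, the log2 fold change was 0.72 and 0.74, and the limma adjusted p was 0.114 and 0.103.

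Hsph1, on chromosome 5 in band qG3, encodes HSP105, a nucleotide exchange factor of HSP70. Its probe A_55_P2176963 read 3.49 and 3.51 with Venus and 3.98 and 3.86 with OASIS, a log2 fold change of 0.42 (SE 0.10, 95% interval 0.14 to 0.69, limma adjusted p = 0.0499). Probe A_55_P2003513, of the same variant 1, read 2.04 and 2.04 with Venus and 2.43 and 2.35 with OASIS, a log2 fold change of 0.35 (SE 0.10, 95% interval 0.081 to 0.61, limma adjusted p = 0.0699). In both, each OASIS array was above each Venus array. The dim probe of variant 2, A_55_P2931347, read -3.55 and -3.77 with Venus and -3.45 and -3.60 with OASIS, and its groups overlapped (log2 fold change 0.14, SE 0.13, limma adjusted p = 0.477). The local background of these spots was marked as an outlier by the scanner software on 4, 3 and 4 arrays, in the order given. With all spots so marked left out, 18 member probes were tested, none of them for Hsph1. Both calls were also lost without Venus replicate 1, Venus replicate 2 or OASIS replicate 1, where the limma adjusted p was 0.271, 0.237 and 0.115 for the brighter probe and 0.327, 0.314 and 0.149 for the other.

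Hsf1, on chromosome 15 in band qD3, encodes the main regulator of the heat shock response, whose activity is controlled largely after translation. Its probe A_52_P647582 read 2.59 and 2.54 with Venus and 2.65 and 2.54 with OASIS. The groups overlapped, and the log2 fold change was 0.032 (SE 0.11, 95% interval -0.25 to 0.31, limma adjusted p = 0.846).

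The calls for Cdc37l1 probes A_51_P446315 and A_52_P365741 were also lost without either Venus array, at log2 fold changes near their main values. Probe A_51_P446315 had a log2 fold change of 0.74 and 0.59 without Venus replicate 1 and Venus replicate 2 (limma adjusted p = 0.105 and 0.145), and probe A_52_P365741 had 0.53 and 0.59 (limma adjusted p = 0.186 and 0.151). Probe A_52_P604130 passed the study's threshold without each array in turn, with a log2 fold change of 1.10 to 1.12. Over the whole array, too, fewer probes passed an adjusted p under 0.1 alone when a Venus array was left out. At the study's threshold fewer passed without Venus replicate 1, but not without Venus replicate 2.

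**Figure D3:**
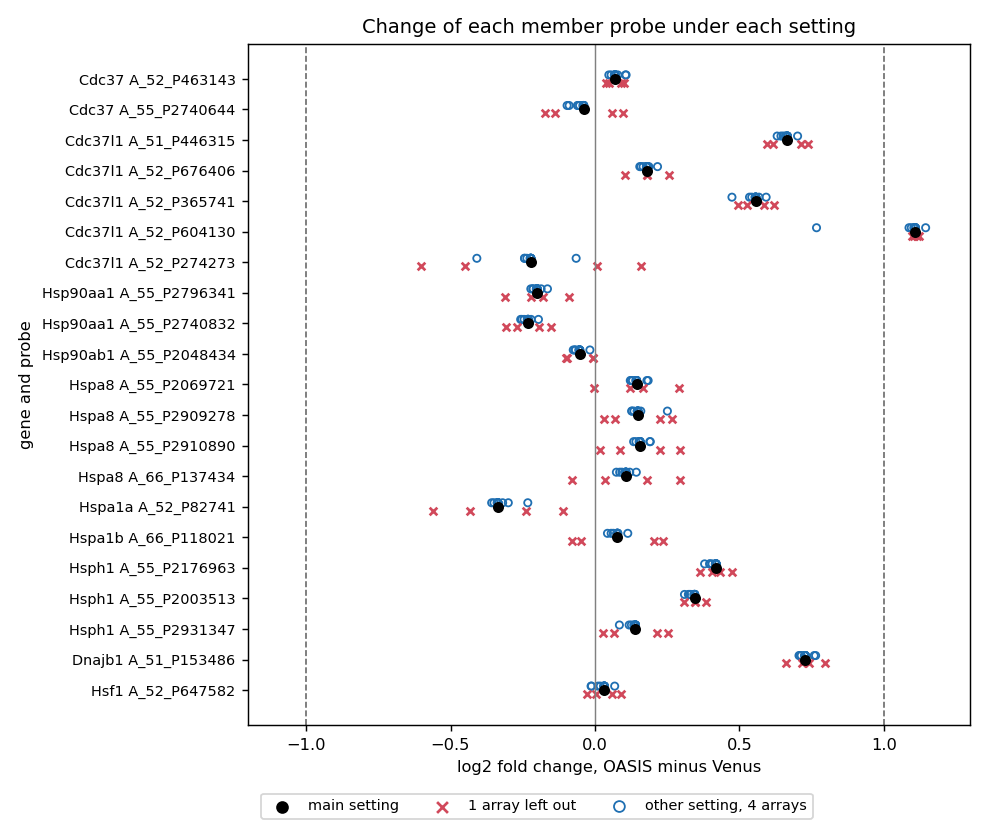
Log2 fold change, OASIS minus Venus, of each member probe tested in the main setting (black), with 1 array left out (red crosses) and in the other settings with all 4 arrays (blue circles). The called probes of Cdc37l1, Hsph1 and Dnajb1 stay right of 0 in each setting in which they were tested. Cdc37 probe A_55_P2740644, Cdc37l1 probe A_52_P274273, Hspa8 probes A_55_P2069721 and A_66_P137434, Hspa1b and Hsf1 cross it.

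Differences between related members were also taken within each array, for 6 pairs chosen after the values were seen. Cdc37l1 minus Cdc37, by their brightest probes over all 4 arrays (A_51_P446315 for Cdc37l1), was -4.95 and -5.03 with Venus and -4.32 and -4.46 with OASIS, a shift of 0.60. Dnajb1 minus Hspa8 was -1.496 and -1.426 with Venus and -1.09 and -0.66 with OASIS, a shift of 0.58. Hspa1a minus Hspa1b was -0.080 and -0.020 with Venus and -0.40 and -0.53 with OASIS, a shift of -0.41. Only the shift can be read, since levels of different probes cannot be compared. The shifts of the other pairs were 0.28 for Hsph1 minus Hspa8, -0.15 for Hsp90aa1 minus Hsp90ab1 and 0.48 between the probes of Cdc37l1 variant 1. For Hsp90aa1 minus Hsp90ab1 the nearest arrays were Venus array 2 at -1.082 and OASIS array 2 at -1.096. None of the 6 pairs overlapped between groups, a share over all pairs was not computed, and each gave a two-sided exact permutation p of 0.333 and an adjusted p of 0.333, the smallest that 2 arrays against 2 allow.

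The pattern nearest to the brightest Hsp90aa1 probe belonged to Mfsd3, at a Euclidean distance of 0.023 log2, followed by Gm14488 and Mrgpre at 0.036 each. Their log2 fold changes were -0.19, -0.19 and -0.22, and none passed (limma adjusted p = 0.276, 0.277 and 0.249).

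The wider chaperone network was described with 6 gene lists of 88 genes, of which 85 were tested, each by its brightest probe. Of these, 2 were higher and 0 were lower at the study's threshold, against 6.21% and 1.85% of all genes, or 8.06% in either direction. At an adjusted p alone 13 were higher and 8 lower, against 18.6% and 18.1%. Their median log2 fold change was -0.065, beside -0.056 for all genes. Counted the same way, 0 of the 10 members passed the threshold, 3 were higher at an adjusted p alone and the median was 0.074. The 3 include Cdc37l1, by the probe that was its brightest over all 4 arrays. Its brightest probe over the Venus arrays alone was not called. The sign of each list's median was the same after quantile normalization, scaling to the median and normexp background correction.

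Of 16 HSP90 co-chaperones, the proteins that regulate HSP90 or dock clients to it, Fkbp5 passed the threshold and 2 were higher at an adjusted p alone, with a median of -0.088. Fkbp5, an immunophilin that modulates steroid receptors on HSP90, read -1.32 and -1.23 with Venus and -0.17 and -0.38 with OASIS, a log2 fold change of 1.004 (SE 0.12, limma adjusted p = 0.0111). This lies at the 2-fold limit, and Fkbp5 passed the threshold in 10 of 17 alternatives, with values of 0.79 to 1.11. It did not pass without Venus replicate 1 or OASIS replicate 1, after scaling to the median, with normexp, the authors' scaled values or the methods' t-test, or by the mean of its probes. Its other probe had 0.58 (SE 0.22, limma adjusted p = 0.119). The other gene called at an adjusted p alone was Stub1, which encodes the ubiquitin ligase CHIP, at 0.44 (SE 0.11, limma adjusted p = 0.0526).

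Of 20 tested genes of the HSP70 family and its partners, 1 passed the threshold, 5 were higher and 2 lower at an adjusted p alone, and the median was 0.11. Hspa2, an HSP70 known best from the testis, read 0.57 and 0.64 with Venus and 2.01 and 1.81 with OASIS. It rose 2.47-fold, a log2 fold change of 1.305 (SE 0.12, limma adjusted p = 0.00690). Outside the naming rule and after their values were seen, the J-domain genes Dnaja4 (0.75, limma adjusted p = 0.0151) and Dnajb4 (0.41, 0.0994) and the HSP70 exchange factors Bag4 (0.52, 0.0299) and Bag3 (0.49, 0.0314) are given as the other genes called higher. By their brightest probes, 2 were called lower. These were Dnaja1, another J-domain gene (-0.33, limma adjusted p = 0.0945), and St13, which encodes the HSP70-interacting protein HIP (-0.47, limma adjusted p = 0.0534). A dimmer Dnaja1 probe, given below, was called higher.

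Of 9 tested small heat shock protein and HSF genes, 0 passed the threshold, 2 were higher and 1 was lower at an adjusted p alone, and the median was -0.13. The largest changes were in heat shock factors other than Hsf1, with Hsf4 at -0.63 (SE 0.15, limma adjusted p = 0.0453) and Hsf2 at 0.59 (SE 0.15, limma adjusted p = 0.0555). The small heat shock gene Hspb6 was the other gene called, at 0.54 (limma adjusted p = 0.0365). Of 13 genes of the TRiC chaperonin, which folds actin and tubulin, and of prefoldin, its partner, 0 passed the threshold and 2 were lower at an adjusted p alone. These were the prefoldin subunit Pfdn1 at -0.33 (SE 0.11, limma adjusted p = 0.0889) and the TRiC subunit Cct4 at -0.30 (SE 0.097, limma adjusted p = 0.0863). The 13 values lay between -0.33 and -0.023, with a median of -0.075.

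Of 20 kinases known as clients of CDC37 and HSP90, 0 passed the threshold, and 3 were higher and 3 lower at an adjusted p alone, with a median of -0.080. The largest changes were those of the receptor tyrosine kinases Egfr at -0.54 (SE 0.18, limma adjusted p = 0.0890) and Met at -0.51 (SE 0.15, limma adjusted p = 0.0765). Of 7 HSP90, HSP70 and chaperonin genes of other compartments, 0 passed the threshold and Hspa13, of the endoplasmic reticulum, was higher at an adjusted p alone (0.70, SE 0.19, limma adjusted p = 0.0576). Hsp90b1, the HSP90 of the endoplasmic reticulum, read 5.20 and 5.17 with Venus and 5.36 and 5.37 with OASIS, a log2 fold change of 0.18 (SE 0.098, limma adjusted p = 0.233). Hspa5, the HSP70 of the same compartment, had 0.065 (SE 0.12, limma adjusted p = 0.714). The mitochondrial HSP90 gene Trap1 had -0.25 (SE 0.14, limma adjusted p = 0.253). The mitochondrial HSP70 gene Hspa9 had 0.072 by its brightest probe (limma adjusted p = 0.676) and -0.49 by the other (limma adjusted p = 0.0694).

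**Figure D4:**
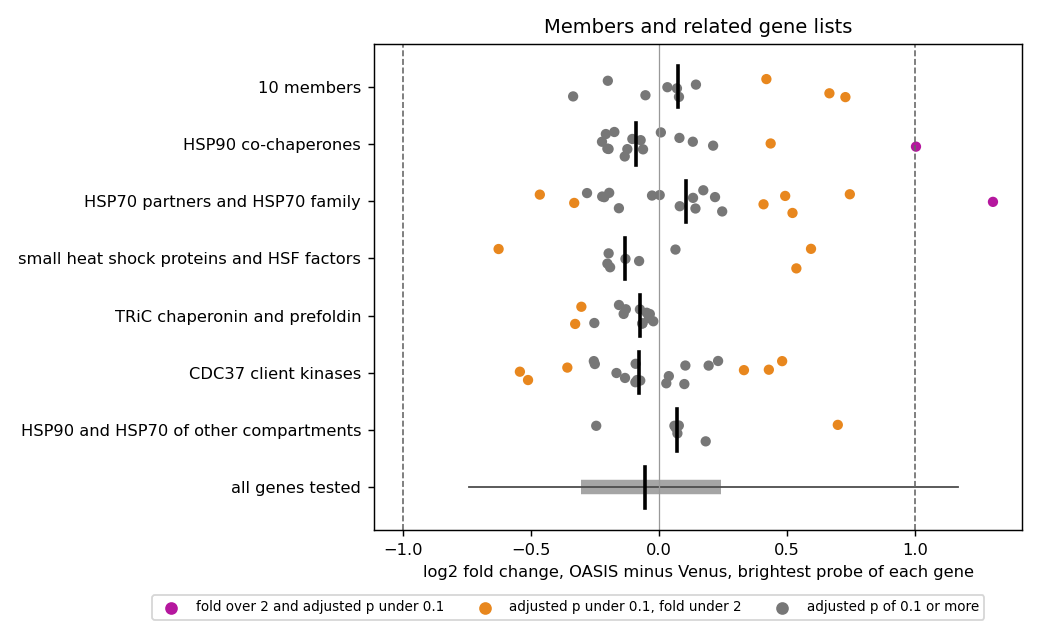
Log2 fold change, OASIS minus Venus, of the brightest probe of each gene, for the 10 members and the 6 lists, with dashed lines at 2-fold. Black bars are medians, and the last line shows all 16318 genes, with a box from the 25th to the 75th percentile and a line from the 5th to the 95th. Fkbp5 and Hspa2 are the points past the threshold, and the medians lie between -0.13 and 0.11.

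As with Cdc37l1, a dimmer probe passed the threshold in 4 list genes whose brightest probe did not, named here after their values were seen. Chordc1, an HSP90 co-chaperone, had 1.38 by probe A_52_P338479 (SE 0.099, limma adjusted p = 0.00467) and -0.063 by its brightest probe (limma adjusted p = 0.685). Hspa4l, a relative of Hsph1, had 1.22 by probe A_55_P2173737 (SE 0.13, limma adjusted p = 0.00909) and 0.25 by its brightest (limma adjusted p = 0.377). Egfr had -1.53 by probe A_52_P674338 (SE 0.15, limma adjusted p = 0.00721). Its other probes were also called lower, unlike those of Chordc1 and Hspa4l. They had -0.54 by the brightest, -0.91 by A_52_P56471 and -0.46 by A_52_P5855 (limma adjusted p = 0.0890, 0.0187 and 0.0411). The last was well above background on 2 arrays only. The fourth was Dnaja1, with 2.27 by its dimmer probe A_55_P1992149 (SE 0.39, limma adjusted p = 0.0222) and -0.33 by its brightest (limma adjusted p = 0.0945). The 2 probes thus went opposite ways. The dimmer one was well above background on 2 arrays only, so it entered the test through 1 group.

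The deposited table also assigns genes to Gene Ontology terms. Protein folding had 82 genes tested, of which 3 (Clgn, Nppc and Dnajc25) were higher and 0 lower at the threshold, against 6.21% and 1.85% of all genes, with a median of 0.058. At an adjusted p alone 19 were higher and 3 lower, against 18.6% and 18.1%. Among 87 genes of unfolded protein binding, which hold 8 of the members, 3 (Clgn, Dnajc3 and Hspa2) were higher and 0 lower, 17 were higher and 5 lower at an adjusted p alone, and the median was 0.056. Clgn, a chaperone of the endoplasmic reticulum, stands in both counts. Among 33 genes of the response to heat, which hold Hsp90aa1, Hspa1a, Hspa1b and Hsf1, 0 were higher, the chemokine gene Ccl2 was lower, 5 were higher and 7 lower at an adjusted p alone, and the median was -0.064. Among 79 genes of chaperone binding, 4 (Dnajc3, Lrp2, Hspa2 and Cdc25a) were higher and 0 lower, 22 were higher and 8 lower at an adjusted p alone, and the median was 0.077. Among 32 genes of Hsp90 protein binding, Eif2ak3 was higher and 0 were lower, 5 were higher and 3 lower at an adjusted p alone, and the median was -0.055. The terms share genes, so their counts are not independent.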

How the data were processed

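Total RNA of 4 samples, 2 per group, was hybridised to 1-colour Agilent arrays. The authors deposited the background-corrected intensity of each spot from Agilent Feature Extraction 12.1.0.3, and a table of scaled intensity, the same values multiplied by a factor for each array, with a detection score, gene symbols and bands. Groups came from the labels.

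Control and outlier spots were left out, log2 intensity was set relative to the 75th percentile of the array, and replicate spots were averaged. Probes were tested if well above background, by a share of 0.5 or more of their spots, on both arrays of a group. limma 3.58.1 in R 4.3.3 compared the groups with lmFit and eBayes, with Benjamini-Hochberg adjustment. The fit was tested on simulated data. The number of arrays limits the precision.

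The members and lists were chosen with earlier results of these data known. Named were all members, list genes past the threshold (otherwise the 2 with the largest change), Hsp90b1, Trap1, Hspa5 and Hspa9, and the 3 nearest genes. Of 15 accessions of member probes, 14 matched the RefSeq annotation. Alternatives covered normalization, background, filters, test, replicate block and left-out arrays. The diffSplice test, the differences within arrays and leaving out spots with a background outlier mark were added after seeing the data. Sequences were not used here, and 1 marker is not reported here.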

Additional observations from a re-analysis of the deposited data

How the results depend on the processing

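The count of member probes past the study's threshold as higher was 1 in all settings but normexp background correction, where it was 0, and 1 to 1 with 1 array left out. As lower it was 0, and 1 with no filter on dim probes, where the untested Hsp90aa1 probe entered. At an adjusted p alone, the count as higher was 6, against 1 with the methods' t-test. It was 5 with no filter on dim probes, 5 at an adjusted p under 0.05 and 4 with background outlier spots left out. With 1 array left out, it also fell without either Venus array and without OASIS replicate 1. Over all 31598 probes the t-test called 1079 as higher, against 5374 in the main setting. As lower it was 0, against 1 with normexp, 1 with no filter, 1 with an intensity trend and 0 to 1 with 1 array left out. For the 6 lists the count as higher was 2, against 1 after scaling to the median, with normexp, with the authors' scaled values and with the mean of a gene's probes, 0 with the t-test, 3 with no filter on dim probes, where Hspb7, dim and not tested above, entered, and 1 to 3 with 1 array left out.

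Of the single member probes compared with their main value, in all settings together, 300 values kept direction and call, 19 lost the call, 3 gained one and 11 turned sign, the last all for changes that were not called. With 1 array left out, Cdc37 probe A_55_P2740644 ran from -0.17 to 0.096 (0.058 without Venus replicate 1) and Cdc37l1 probe A_52_P274273 from -0.60 to 0.16 (0.0055 without OASIS replicate 2). Hspa8 probes A_55_P2069721 and A_66_P137434 ran from -0.0022 to 0.29 and from -0.079 to 0.29, Hspa1b from -0.080 to 0.24 (-0.048 without Venus replicate 2) and Hsf1 from -0.027 to 0.092. Hsf1 was -0.013 after quantile normalization and -0.012 with normexp. The cause was not tested.

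Replicate numbers came from the labels, which do not say what they pair. Over the probes tested, the difference between replicates 1 and 2 with Venus correlated with that with OASIS at r = 0.26. With the replicate block 1 member probe passed the threshold as higher and 6 at an adjusted p alone, as without it, and over all probes 6085 were higher and 7645 lower at an adjusted p alone, against 5374 and 6227. Over all probes the threshold was passed by 1861 as higher and 780 as lower, by 972 and 250 with normexp and by 551 and 175 with the t-test. The median log2 fold change of all probes was -0.081, -0.090 and -0.037 with quantile normalization, scaling to the median and normexp, and over all settings it ran from -0.106 without Venus replicate 2 to -0.028 with no filter on dim probes. A block for slide was not run, since there was 1 slide.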
